A study of Mus musculus with 6 samples.

Results

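The genes described here are the receptor of interleukin 31 and the interleukin 6 (IL-6) cytokine family: 10 of the 33308 genes in the deposited table, found by gene name. They are 6 receptor genes (Il31ra, Osmr, Il6st, Lifr, Il6ra and Il11ra1) and 4 ligand genes (Osm, Lif, Il6 and Il11). The group was chosen by the counts of Il31ra, which were much lower in treated skin, so the differences of the 10 genes between the groups are given as a description, with no test. The data are RNA-seq of 6 mouse skin samples: 3 untreated controls and 3 from animals that received osimertinib, a drug that blocks the epidermal growth factor receptor, for 42 days. The labels give no strain, age, sex, dose or skin site, and do not say whether each sample is its own animal, so the spread within a group may be partly technical.

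Cytokines of this family act through receptor chains that span the membrane and share a signalling subunit, gp130, encoded by Il6st. Interleukin 31 is the exception: its receptor pairs the chain encoded by Il31ra with that encoded by Osmr, and it is known as a cytokine of itch, acting on sensory nerve endings as well as on skin cells. Bound receptors activate JAK kinases, which phosphorylate STAT factors, STAT3 above all, and STAT3 switches on the feedback inhibitor Socs3. In skin, oncostatin M from macrophages is known to hold hair follicle stem cells at rest through the receptor encoded by Osmr.

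Several members lie side by side in the genome. Il31ra (ENSMUSG00000050377, minus strand) spans chr13:112519898-112594360 on GRCm38, and Il6st (plus strand) ends 9.81 kb from it, with 0 genes of the table between them. Osm and Lif, both on the plus strand of chromosome 11, are 16.5 kb apart, also with 0 genes between. Osmr and Lifr lie 216 kb apart on chromosome 15 on opposite strands, with 1 gene of the table, Gm38282, between them.

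RefSeq promoter windows (build GRCm38.p6, 250 bases before to 50 after a transcript start) were found for 9 of the 10 members, 12 windows in all. They were searched on both strands for the STAT motif TTCNNNGAA, for the AP-1 motif, whose letters are TGANTCA, and for the NF-kappaB motif. The windows of the receptor with the most negative difference and of 2 ligands that were higher are shown, each with its matches in capitals.
Il31ra, chr13:112580613-112580912, minus strand: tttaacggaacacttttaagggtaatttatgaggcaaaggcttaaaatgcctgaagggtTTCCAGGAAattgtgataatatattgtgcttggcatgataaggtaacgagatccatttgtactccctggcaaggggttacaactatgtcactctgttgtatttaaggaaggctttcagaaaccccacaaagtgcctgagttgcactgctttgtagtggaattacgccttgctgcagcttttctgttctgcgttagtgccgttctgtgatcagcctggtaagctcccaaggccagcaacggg
Il6, chr5:30012864-30013163, plus strand: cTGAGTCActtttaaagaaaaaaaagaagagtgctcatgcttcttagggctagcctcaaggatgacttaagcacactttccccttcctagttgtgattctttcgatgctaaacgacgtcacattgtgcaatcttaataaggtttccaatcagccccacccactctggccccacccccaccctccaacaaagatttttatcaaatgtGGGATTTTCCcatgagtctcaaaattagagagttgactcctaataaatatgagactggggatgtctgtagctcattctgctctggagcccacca
Lif, chr11:4257318-4257617, plus strand: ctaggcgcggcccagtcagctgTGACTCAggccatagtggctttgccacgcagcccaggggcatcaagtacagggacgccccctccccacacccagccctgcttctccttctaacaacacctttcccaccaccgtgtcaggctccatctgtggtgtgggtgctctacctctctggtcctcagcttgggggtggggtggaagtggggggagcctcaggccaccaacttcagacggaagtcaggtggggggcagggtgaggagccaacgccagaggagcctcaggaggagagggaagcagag
The Il31ra window holds the sequence TTCCAGGAA, whose first base is at -191 from the start. It was the only member window with a match to the STAT motif, which 8.33% of the 32544 RefSeq windows of this length hold. The Il6 window holds an AP-1 match (TGAGTCA, at -249) and an NF-kappaB match (GGGATTTTCC, at -44), and the Lif window an AP-1 match (TGACTCA, at -228). Such matches occur in 7.79% (AP-1) and 4.16% (NF-kappaB) of all windows. Of the other members, Osmr and Il11 have 1 AP-1 match each. A match describes letters only, and the deposited data do not measure binding. The Il31ra window lies inside the span of the deposited gene model, which begins further upstream.

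Library totals ran from 54112624 to 60719064 counts. A library with no count of a gene could still hold a level worth 3 counts, or 0.0469 to 0.0649 CPM (counts scaled to library size), for counting error only. The basal keratinocyte gene Krt5 was present in every library, at 4727 to 14382 CPM, but the pieces differed in makeup. Summed skeletal muscle markers were at 31731, 119125 and 192 CPM in controls 1, 2 and 3 and at 29126 to 55383 CPM in treated samples. Hair shaft and matrix markers were at 18.4 to 179 CPM in control skin, against 570 to 3672 CPM in treated samples. In bulk tissue, fewer cells of a type and less RNA per cell cannot be told apart.

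In treated skin 5 of 6 receptors had lower fitted levels and 3 of 4 ligands had higher ones. Of all 19911 genes tested, 10790 were lower and 9121 higher. These signs include Osmr, Il6ra, Il6 and Il11, whose groups overlapped, and Il31ra, by which the group was chosen. Il31ra was lowest relative to control (24.7-fold lower), followed by Il6ra (3.47-fold) and Lifr (2.67-fold), while Osm, Lif and Il6 were 6.53-, 5.59- and 5.22-fold higher. All 10 members passed the filter of a mean of at least 10 counts per library. Every treated sample lay above every control for 3 members (Osm, Lif, Il11ra1) and below for 3 (Il31ra, Il6st, Lifr). Over all 19911 genes tested the shares were 11.0% and 9.43%, or 20.4% in either direction.

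**Figure D1:**
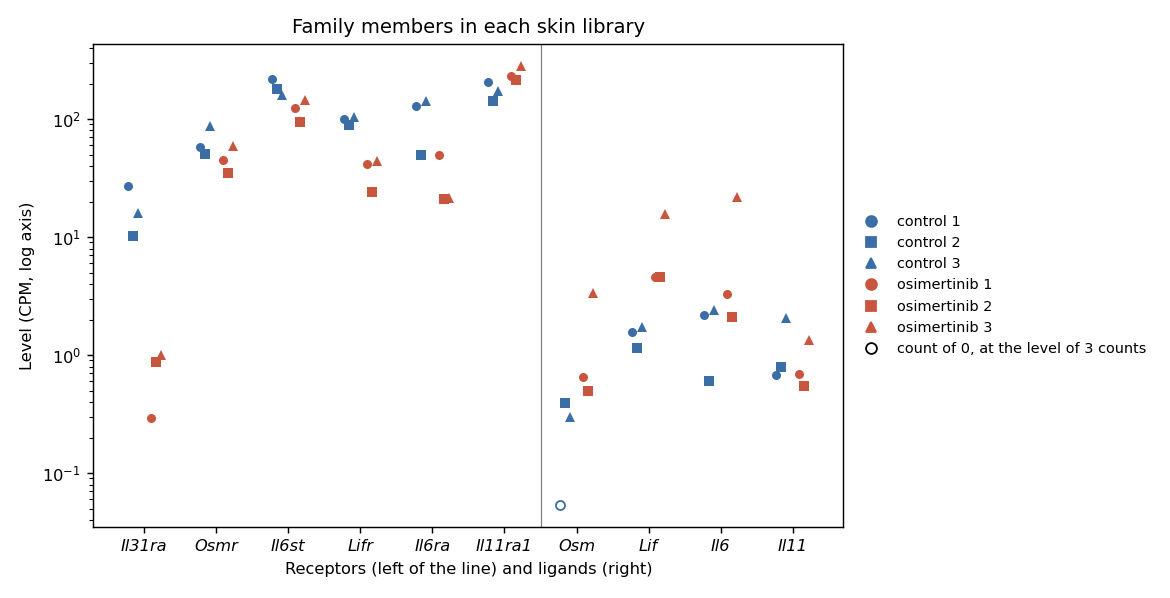
Level of each member in each of the 6 libraries, in CPM on a log axis, with receptors left of the line and ligands right of it. Il31ra lies between 10.2 and 27.2 CPM in control skin, against between 0.291 and 0.995 CPM in treated samples, and the open symbol marks the count of 0 for Osm in control 1.

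Il31ra, the chain that binds interleukin 31, was at 27.2, 10.2 and 16.1 CPM in controls 1, 2 and 3. In osimertinib samples 1, 2 and 3 it was at 0.291, 0.874 and 0.995 CPM, from 17, 56 and 62 counts. The groups did not overlap: 0.995 CPM in the highest treated sample, against 10.2 CPM in the lowest control. The log2 fold change was -4.62 ± 0.62 (SE, n = 3 per group), the 30th most negative of the 19911 genes tested, and leaving out any 1 library kept it between -4.88 and -4.17. On the log2(FPKM + 1) scale it was -1.66, since a pseudocount of 1 exceeds the treated levels. The gene Gm3226, which overlaps the Il31ra span on the same strand, differed by 0.19 ± 0.35 (adjusted p = 0.885, edgeR). Il31, the gene of the ligand itself, was not found by name in the deposited table, so its level could not be examined.

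Sensory neurons and keratinocytes are both known sources of this receptor, so markers of both stand beside it. The 8 matched sensory neuron markers summed to 8.48 to 9.38 CPM in control skin, against 3.62 to 5.2 CPM in treated samples. Most of that sum was Avil, an actin-binding protein of sensory neurons, at 7.23 to 7.67 CPM in control skin, against 2.62 to 2.95 CPM in treated samples. Scn10a, the sodium channel that defines pain-sensing neurons, had a count of 0 in all 6 libraries, and Calca was at 0.0468 to 0.36 CPM. Basal keratinocyte markers summed to 12995 to 40696 CPM in control skin, against 10463 to 19702 CPM in treated samples, and suprabasal markers to 4228 to 9245 and 711 to 6474 CPM. Both keratinocyte sums overlapped between the groups, although 8 of 8 basal and 8 of 8 suprabasal markers had a negative log2 fold change. The neuronal sum did not overlap, but without Avil the other 7 markers summed to 0.887 to 2.15 CPM in controls, against 0.999 to 2.25 CPM in the treated samples, and overlapped. Of the 5 tested neuronal markers, 3 had a negative log2 fold change and 2 a positive one. The part of any of these in the Il31ra difference was not tested.

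Osmr, the partner chain of Il31ra and the receptor of oncostatin M, was at 57.7, 50.8 and 86.5 CPM in controls 1 to 3. In treated samples 1 to 3 it was at 45.3, 34.7 and 59.0 CPM. The groups overlapped, and the log2 fold change of -0.49 ± 0.29 (SE) was -0.22 without control 3 and -0.30 without osimertinib 2. The 2 chains of the interleukin 31 receptor thus had differences of very unlike size, with Il31ra the gene by which the group was chosen. The difference between these 2 differences was not tested.

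Il6st, which encodes gp130, was at 218, 180 and 160 CPM in control skin, against 124, 94.1 and 145 CPM in treated samples. Its groups lay apart, although control 3 and osimertinib 3 were close, and the log2 fold change was -0.62 ± 0.24 (SE). Lifr, the chain that joins gp130 to bind leukemia inhibitory factor, was at 99.4, 89.7 and 104 CPM in controls. It was at 42.0, 23.9 and 44.0 CPM in treated samples, a log2 fold change of -1.42 ± 0.27. Relative to their mean, the controls were closer together for Lifr than for the other 5 receptors (97.8 ± 7.47 CPM, SD, n = 3).

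Il6ra, the chain that gives cells their affinity for IL-6, was at 129, 49.3 and 141 CPM in controls. In treated samples it was at 49.4, 20.9 and 21.6 CPM. Control 2 and osimertinib 1 were nearly equal, so the groups overlapped at that point, and the log2 fold change was -1.80 ± 0.52 (SE). Control 2, the library with the most muscle RNA, was also the lowest control for Il31ra, Osmr and Lifr, and the effect of muscle content on these levels was not tested. Leaving out control 2 gave log2 fold changes of -4.86 for Il31ra, -2.12 for Il6ra and -1.45 for Lifr.

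Il11ra1, the receptor chain for interleukin 11, was the only receptor with a positive difference. It was at 206, 141 and 172 CPM in control skin, against 232, 216 and 282 CPM in treated samples, with a log2 fold change of 0.49 ± 0.23 (SE). Its near-identical copy Il11ra2 was at 59.7, 22.1 and 36.2 CPM in control skin, against 15.0, 17.3 and 20.9 CPM in treated samples. Reads may have been divided between the copies in an unknown way, and their sum overlapped between groups, at 163 to 266 CPM in control skin, against 233 to 302 CPM in treated samples. The deposited Il11ra1 span also overlaps 6 other genes, among them the chemokine gene Ccl27a on the opposite strand (log2 fold change -1.20 ± 0.44, adjusted p = 0.336, edgeR). Whether counting used strand is not given in the sources used here. Whether reads of the overlapping genes were kept apart was not tested, so the Il11ra1 value is uncertain.

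**Figure D2:**
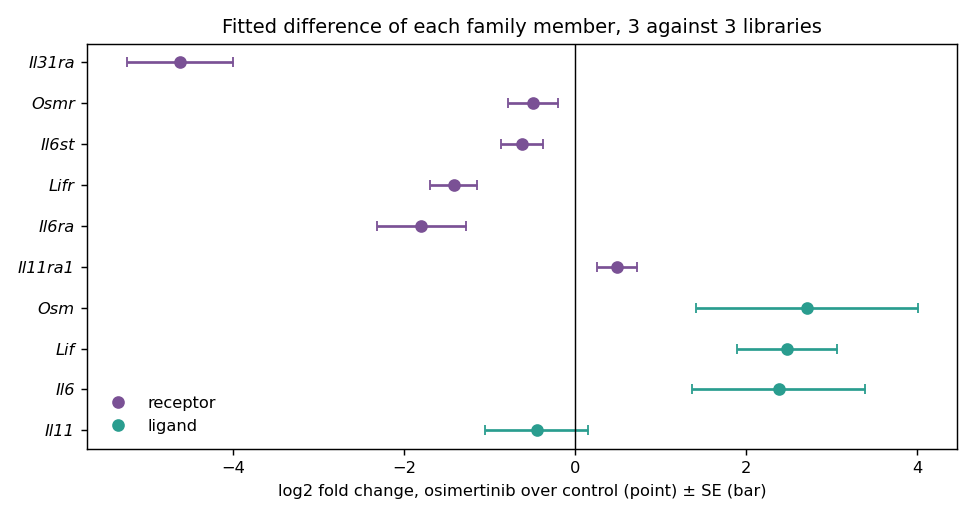
Fitted log2 fold change of each member, osimertinib over control, with its standard error, from 3 libraries per group. The 5 receptors Il31ra, Osmr, Il6st, Lifr and Il6ra lie left of 0, as does the ligand Il11 (-0.45). The ligands Osm, Lif and Il6 lie right of 0, as does the receptor Il11ra1 (0.49).

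The ligands were scarce transcripts. Osm, which encodes oncostatin M, had 0, 18 and 19 counts in controls 1 to 3 (0, 0.389 and 0.297 CPM). In treated samples 1 to 3 it had 38, 32 and 208 counts (0.651, 0.499 and 3.34 CPM). Each treated sample was above each control, and osimertinib 3 stood far above the other two. The log2 fold change was 2.71 ± 1.30 (SE), or 1.34 without osimertinib 3.

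Lif, which encodes leukemia inhibitory factor, was at 1.58, 1.15 and 1.72 CPM in controls. In treated samples it was at 4.59, 4.62 and 15.7 CPM, so that the groups lay apart even without osimertinib 3. Its log2 fold change was 2.48 ± 0.58 (SE), and 1.67 without that sample. Il6, the founding cytokine of the family, was at 2.19, 0.606 and 2.39 CPM in control skin, against 3.27, 2.09 and 21.8 CPM in treated samples. The groups overlapped, since osimertinib 2 was below controls 1 and 3. The log2 fold change of Il6, 2.38 ± 1.01 (SE), was 0.67 without osimertinib 3 and 1.85 with the replicate number as a block.

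Il11, a cytokine of stromal cells, was the exception among the ligands. It was at 0.682, 0.8 and 2.05 CPM in control skin, against 0.685, 0.546 and 1.35 CPM in treated samples, with overlapping groups. Its log2 fold change was -0.45 ± 0.60 (SE), ranging from -0.90 without osimertinib 3 to 0.21 without control 3.

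Osimertinib 3 held the highest level of Osm, Lif and Il6 alike, and it was also the library with the highest sum of neutrophil markers. The 8 matched neutrophil markers summed to 0.735, 20.8 and 22.2 CPM in control skin, against 203, 67.8 and 553 CPM in treated samples. Nearly all of that was S100a8 and S100a9, alarmins that keratinocytes also make, at 250 and 295 CPM in osimertinib 3. The defining neutrophil marker Ly6g had a count of 0 in 5 libraries and was at 0.177 CPM in osimertinib 3. The granulocyte receptor Csf3r was at 4.64 CPM there, against 0.341 to 1.57 CPM elsewhere. The other matched neutrophil markers went both ways. Mmp8 and Camp were highest in osimertinib 3 (1.56 and 0.337 CPM). Cxcr2 and Retnlg were highest in control 3 (1.69 and 0.344 CPM), against 0.674 and 0.128 CPM in osimertinib 3. Summed macrophage and monocyte markers were at 246 to 267 CPM in control skin, against 237, 115 and 345 CPM in treated samples. In osimertinib 3 the suprabasal keratinocyte sum was 711 CPM, the lowest of the 6. The part of these cell types in the ligand levels was not tested.

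**Figure D3:**
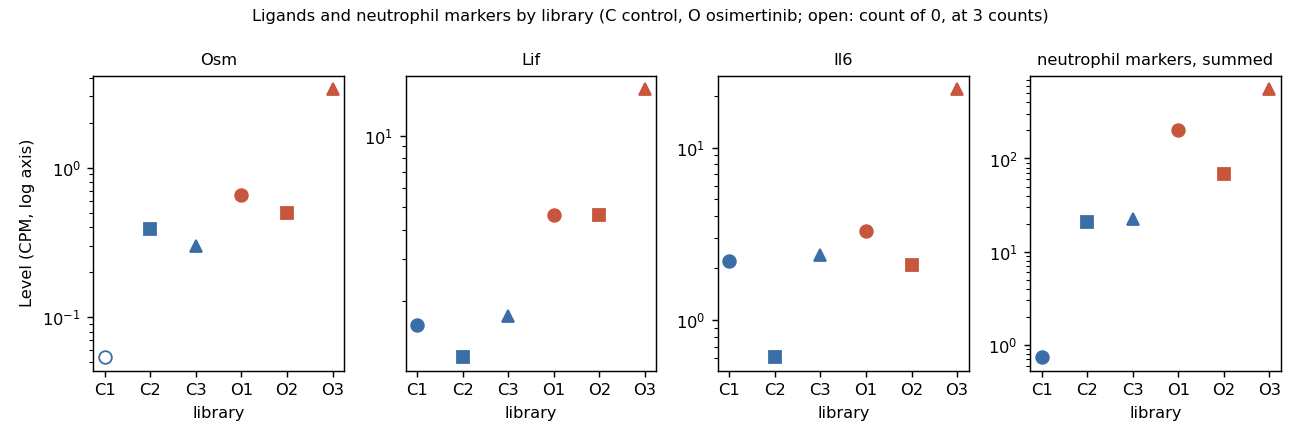
Levels of Osm, Lif, Il6 and the summed neutrophil markers in each library, in CPM on log axes (C1 to C3 controls, O1 to O3 osimertinib). Osimertinib 3 is highest in all 4 panels, and Lif in every treated sample lies above every control.

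Per unit of transcript length, receptors stood above ligands in controls. In deposited FPKM (fragments relative to gene length and to library size), Il11ra1 was highest at 33.1 ± 9.87 (SD, n = 3), then Il6st at 14.1 ± 3 and Il6ra at 10.9 ± 6.13. Lifr (7.71 ± 1.77), Osmr (4.64 ± 1.99) and Il31ra (2.72 ± 1.48) followed. The ligands were at 0.625 ± 0.406 (Il6), 0.496 ± 0.384 (Il11), 0.292 ± 0.101 (Lif) and 0.0758 ± 0.0656 (Osm). Among these neighbours Il6st and Il6ra, Il6ra and Lifr, Lifr and Osmr, Osmr and Il31ra, Il6 and Il11, and Il11 and Lif had overlapping ranges. In treated skin the order was Il11ra1 (47.9 ± 6.62), Il6st (9.59 ± 1.89), Osmr (3.35 ± 0.85), Il6 (3.27 ± 4.02), Il6ra (3.08 ± 1.5), Lifr (2.97 ± 0.83), Lif (1.68 ± 1.3), Osm (0.578 ± 0.622), Il11 (0.356 ± 0.184) and Il31ra (0.112 ± 0.0598). Il31ra was the fifth or the sixth member in each control and the last in each treated sample, where it was listed at 0.0431 to 0.152 FPKM. Each pair of neighbours from Osmr to Il11 in the treated order had overlapping ranges, and the highest Il31ra value was below the lowest Il11 value, 0.235 FPKM.

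The genes whose profile over the 6 libraries was most like that of Il31ra were sought among 12066 genes that were tested, had a mean of at least 1 FPKM and did not have a provisional name (Gm or LOC with a number, or ending in Rik). The measure was the mean absolute difference of centred log2 CPM over the 6 libraries. Defb8, a beta-defensin, was nearest at 0.63, at 41.4 to 171 CPM in control skin, against 6.97 to 9.97 CPM in treated samples. Fgf18, a growth factor of resting hair follicles, followed at 0.68, then Best2, an anion channel, at 0.70 and the arginine-degrading enzyme Arg1 at 0.71. Serpinb11, a serine protease inhibitor family member, was at 0.71 and Wfdc3, a whey acidic protein family member, at 0.74. Within the family the nearest profile was that of Il6ra, at 1.42, and then Lifr at 1.58, both further away than these 6 genes. This ranking is a description of 6 libraries, and any gene much lower in treated skin scores well on it.

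The genes around the family were taken from 4 lists and tested with edgeR's quasi-likelihood test, with p adjusted over all 19911 genes. No gene passed at an adjusted p of 0.05: edgeR called 0 genes (0% higher and 0% lower), against 1412 higher and 1233 lower (7.09% and 6.19%) at an unadjusted p of 0.05. DESeq2 called 615 higher and 460 lower genes (3.09% and 2.31%). The members of the 4 lists are therefore described by their values.

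Other ligands and receptors of the family went both ways. Of 10 listed, 9 were tested, 5 with a positive and 4 with a negative difference, and a median log2 fold change of 0.51 against -0.05 over all genes tested. At an unadjusted p of 0.05, edgeR counted 1 higher and 2 lower. Cntfr, the receptor chain for ciliary neurotrophic factor, was at 3.84, 4.43 and 4.28 CPM in control skin, against 17.8, 55.3 and 24.8 CPM in treated samples. Its groups lay far apart, with a log2 fold change of 2.96 ± 0.45 (SE; adjusted p = 0.151 by edgeR and 2.56e-07 by DESeq2). Il11ra2 differed by -1.15 ± 0.37 (adjusted p = 0.296, edgeR), and by -0.70 without control 1. Il27ra, a receptor chain for interleukin 27, differed by 0.81 ± 0.50 (adjusted p = 0.543, edgeR), and by 0.26 without osimertinib 3.

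Another list held the JAK-STAT relay and its brakes. Of its 30 genes, 9 had a positive and 21 a negative difference, with a median of -0.21; at an unadjusted p of 0.05 edgeR counted 1 higher and 5 lower, 3.33% and 16.7% of the list. In a split made after the values were seen, the 11 kinase and STAT genes had 0 positive and 11 negative differences. Of all 19911 genes tested, 10790 had a negative difference. Among the 11, the differences of Jak2, Stat3 and Stat5b (-0.34 ± 0.35) were smaller than their SE. The 16 genes of the Socs, Cish, Pias and Ptpn families, most of them inhibitors, had 8 positive and 8 negative differences. Stat2, a STAT of interferon signalling, was at 26.7, 19.0 and 37.5 CPM in control samples 1 to 3. It was at 13.2, 13.0 and 16.1 CPM in the treated ones, so the groups lay apart, with a log2 fold change of -0.97 ± 0.28 (adjusted p = 0.267 by edgeR and 0.038 by DESeq2). Gab1, a docking protein downstream of gp130 and of the epidermal growth factor receptor, differed by -0.68 ± 0.21 (adjusted p = 0.29, edgeR). Socs5, a suppressor of cytokine signalling, had the smallest p among the higher genes of the list, at 22.8 to 26.7 CPM in control skin, against 33.5 to 44.5 CPM in treated samples (0.60 ± 0.18, adjusted p = 0.282, edgeR).

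The central genes of the relay, named here for their place in it after their values were seen, differed by less than 1 on the log2 scale. Stat3 averaged 192 CPM in control skin, against 172 CPM in treated skin (-0.16 ± 0.28, SE) and Jak2 35.2 and 32.2 CPM (-0.13 ± 0.19). Socs3 averaged 145 and 107 CPM (-0.44 ± 0.55). Each of these 3 genes had overlapping groups. Jak1, the kinase bound to gp130, averaged 143 and 91.7 CPM with groups that lay apart (-0.64 ± 0.26).

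Genes that STAT3 is known to switch on were divided evenly. Of 24 tested, 12 were higher and 12 lower, with a median of -0.03, while at an unadjusted p of 0.05 edgeR counted 5 higher and 2 lower (20.8% and 8.33% of the list). Lcn2, an iron-binding defence protein, was at 2.06, 3.74 and 4.05 CPM in control skin, against 23.5, 9.78 and 67.2 CPM in treated samples. Its groups lay apart, with osimertinib 3 highest, as for Osm, Lif and Il6 (log2 fold change 3.35 ± 0.74, adjusted p = 0.196 by edgeR and 0.000113 by DESeq2). Bcl3, an NF-kappaB cofactor, was at 5.41 to 14.0 CPM in control skin, against 15.0 to 34.3 CPM in treated samples (1.37 ± 0.44; adjusted p = 0.297 by edgeR and 0.0486 by DESeq2). Cebpb, a transcription factor of the acute-phase response, differed by 0.76 ± 0.21 (adjusted p = 0.264 by edgeR and 0.0293 by DESeq2). Bcl6, a transcriptional repressor, went the other way, at 143, 146 and 132 CPM in control skin, against 68.3, 78.4 and 67.7 CPM in treated samples. The Bcl6 values were the most even within groups of the 4 (log2 fold change -0.97 ± 0.17, adjusted p = 0.165 by edgeR and 4.14e-05 by DESeq2).

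Other receptors and mediators of itch and type 2 immunity had fitted differences between -1.52 and 1.60. That of Il31ra was larger, but Il31ra was chosen for its low counts in treated skin, so this comparison carries no weight. Of 26 listed, 24 were in the table and 21 were tested, 10 higher and 11 lower, with a median of -0.02, and 0 genes were below an unadjusted p of 0.05 by edgeR or passed in DESeq2. The lowest p belonged to Il1rap, the co-receptor of interleukin 33 and interleukin 1 (-0.94 ± 0.39, adjusted p = 0.378, edgeR). Il33, an alarmin of keratinocytes, averaged 52.1 CPM in control skin, against 22.3 CPM in treated skin (-1.22 ± 0.51, adjusted p = 0.38, edgeR), and its difference was -0.65 without control 3. Hrh2, a histamine receptor, was scarce, at 0.341 to 1.11 CPM in control skin, against 0.109 to 0.325 CPM in treated samples (-1.52 ± 0.71, adjusted p = 0.418, edgeR), and its difference was -0.77 without control 3. Il13ra1, a chain of the receptor for interleukins 4 and 13, differed by -0.79 ± 0.40 (adjusted p = 0.454, edgeR), and by -0.32 without control 3. For the difference between Il31ra and these genes no test was run.

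**Figure D4:**
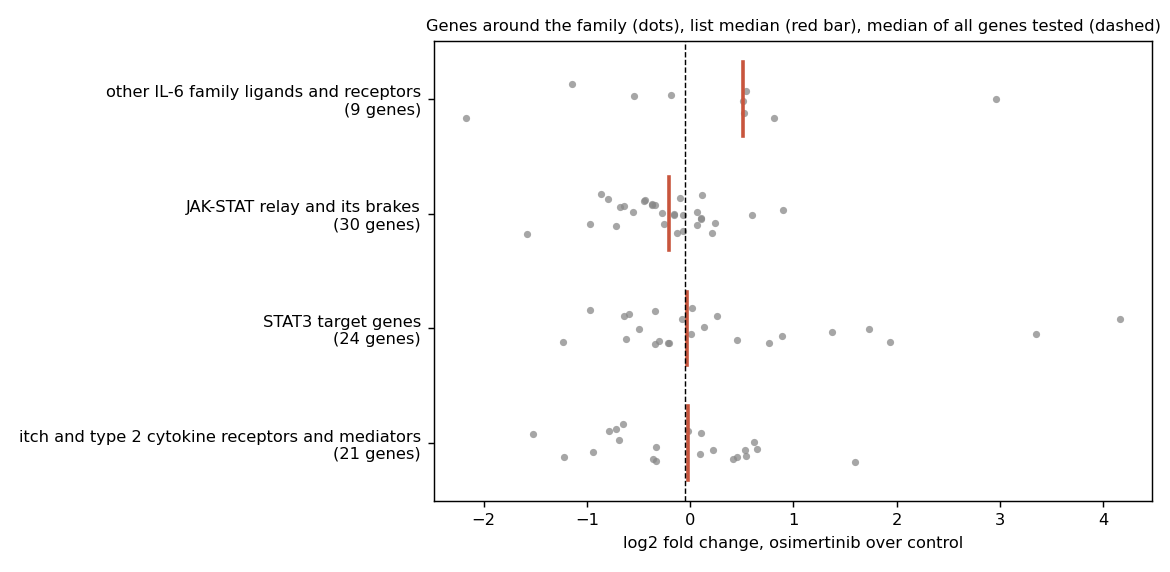
Log2 fold change, osimertinib over control, of every tested gene of the 4 lists (dots), with each list's median (red bar) and the median of all genes tested (dashed line, -0.05). The medians are 0.51, -0.21, -0.03 and -0.02 from top to bottom, and the dots of each list lie on both sides of 0.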

How the data were processed

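The authors deposited 1 table for the series, which holds raw counts for each gene and, per the file headers, FPKM values. The submitters' processing notes name cutadapt 1.9 and the build GRCm38. On the aligner, the counter, and the use of strand and of the molecular identifiers that the labels' protocols name, nothing is given in the sources used here. A further 6 columns of values match no sample here and were not used.

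Groups and replicate numbers come from the sample titles. Genes with a mean of at least 10 counts per library (19911 of 33308) were tested in edgeR 4.0.16 (quasi-likelihood; R 4.3.3), with TMM scaling, no covariate, two-sided p and Benjamini-Hochberg adjustment, after a test on simulated data. SE was taken as the size of the fitted log2 difference over the root of its F statistic. CPM are scaled to the tested genes' counts with TMM factors. Alternatives were DESeq2 1.42.0, limma 3.58.1 on log2(FPKM + 1 or 0.1), other filters and scaling, a replicate block, removal of skeletal muscle markers and leaving out each library. The members, lists and marker genes were chosen with earlier results of these data known. Named genes are the members, the 4 genes of each list with the smallest p, the 6 nearest profiles to Il31ra, and marker genes beside a result; others are marked in the text. Some genes that this rule takes are left out of the text.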

Additional observations from a re-analysis of the deposited data

How the results depend on the processing

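No gene passed in edgeR under any of its settings run, which were the other scaling, filters, muscle removal, the replicate block (0 genes) and each of the 6 left-out libraries (0 to 0). DESeq2 called 1075 genes, and limma 5 and 10 genes on log2(FPKM + 1) and log2(FPKM + 0.1). The number of members with a positive difference was 4, and 2 of the 7 left by a minimum mean of 1 FPKM, a filter that removes Osm, Lif and Il11; it was 4 to 5 with 1 library left out. Of 137 alternative values of the members, 131 moved by less than 1 SD between replicates. The others were Il31ra, Osm and Lif on log2(FPKM + 1) (-1.66, 0.49 and 0.95), Il31ra on log2(FPKM + 0.1) (-3.63), and Il6 and Lif without osimertinib 3. Only Il11 changed sign, without control 3 (0.21). That value stayed within 1 SD, as did Osm without osimertinib 3 (1.34, against 2.71 with all libraries). The SD is each gene's own, so this limit is wide for genes with noisy replicates. The median of the other family genes was -0.38 with that filter, 0.07 and 0.06 on the 2 FPKM scales, -0.18 with the replicate block and -0.07 to 0.34 with 1 library left out. The itch list median was -0.34 with the same filter. The STAT3 target and itch medians, both near 0, changed sign in 7 and 3 of 14 alternatives, and the JAK-STAT median in 0. The 16 list genes that the naming rule takes kept their sign in all 222 alternatives, and 8 of them passed in DESeq2. Same-numbered samples did not deviate together (correlations 0.11, 0.01 and -0.08), so the replicate number was not taken as a pairing. Depth limits Osm, Il11 and treated Il31ra most, which rest on 0 to 208, 35 to 131 and 17 to 62 counts a library.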

Other observations

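Beside the lists described with the members, other marker sums also lay apart between the groups, as values with no test. Schwann cell and nerve markers summed to 230, 225 and 164 CPM in control skin, against 151, 90.2 and 97.5 CPM in treated samples. Melanocyte markers summed to 30.8, 47.6 and 31.1 CPM in control skin, against 168, 386 and 140 CPM in treated samples. The mast cell and basophil sum was higher in each treated sample (43.4 to 66.6 against 22.3 to 27.1 CPM). Most of that difference, though not of each sum, came from Kit, which melanocytes also express. Kit was at 15.0 to 54.0 CPM in treated samples and 1.72 to 4.95 CPM in controls. The mast cell protease gene Cpa3 was at 2.13 to 3.2 CPM in control skin, against 1.45 to 3 CPM in treated samples, and the basophil gene Mcpt8 had a count above 0 in osimertinib 3 only.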
